A study of Mus musculus with 31 samples.

Results

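The crossover maturation genes were Msh4, Msh5, Mlh3, Rnf212, Hfm1 and Mus81, 6 of the 21883 protein-coding genes that the RefSeq table of GRCm38.p6 places on the mouse chromosomes. They were chosen by name, and a meiotic hotspot was assigned to a gene when its centre lay inside the gene span or within 5000 bp of it. Hotspots are places where DNA double-strand breaks of meiosis recur. They were mapped in testis with DMC1 SSDS, which recovers single-stranded DNA bound by the strand-exchange protein DMC1 and sequences it. The 26 hotspot lists comprised 6 inbred strains, 19 F1 crosses and 1 Prdm9 knockout, each from 1 library, so no value has a replicate error and absence from a list can reflect its unknown depth. Of the inbred strains, PWD stands for PWD/PhJ, MOL for MOLF/EiJ and CAST for CAST/EiJ. The name 13R stands for B10.F-H2pb1/(13R)J, C3H for C3H/HeJ and B6 for C57Bl/6J. Cross names give the mother first, marked f, and then the father, marked m, as in PWDfXB6m. The knockout, B6;129P2-Prdm9<tm1Ymat>/J, carries its allele on a mixed B6 and 129P2 background, so that a difference from B6 is not one of Prdm9 alone. The sources used here do not give the age of the animals or say if libraries pooled several of them. The series text says that the sample labelled CAST was removed for a wrong label, and names CASTfx13Rm, which would be an F1 of CAST and 13R. A list labelled CAST is still among the 26. That list held 0.800% of the strongest 5000 autosomal 13R hotspots (centres under 400 bp apart), while the 5 crosses with a 13R parent held 97.1% to 99.5%. It was used as inbred CAST, as labelled.

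In meiosis many breaks are repaired from the homologous chromosome, and a few repair events per chromosome mature into crossovers. MSH4 and MSH5 form a clamp that holds recombination intermediates, HFM1 (also called MER3) is a helicase that extends them, and RNF212 is a RING-finger protein that gathers at sites that will become crossovers. MLH3 is part of the nuclease that resolves most of these intermediates, while MUS81 is the nuclease of a second, minor pathway. In mice PRDM9, a zinc-finger histone methyltransferase, sets where most breaks form, and its DNA-binding part differs between strains. The question for these genes was whether breaks fall within them, where along the gene, and in which genotypes.

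Every one of the 6 genes had a hotspot in the Prdm9 knockout, against 66.2% of all protein-coding genes, and in each of the 6 a knockout hotspot covered the promoter whole, as in 53.5% of the 17491 genes with a promoter in the table. In the 25 lists with PRDM9, most hotspots lay farther into the bodies of Msh4, Mlh3, Rnf212, Hfm1 and, in MOL crosses, Msh5, and Mus81 had none. Exceptions were weak hotspots near the start of Hfm1 in PWDfXB6m and PWDfXC3Hm and one outside Msh5 in B6. In Mlh3 strong and wide hotspots of PWD and 13RfXB6m, centred about 2970 bp into the gene, overlapped the knockout hotspot at its start. Of 16 places with hotspots in the lists with PRDM9, the 7 that were in at least 3 lists could be tested. Each was found more often with 1 parental strain, and 70.5% of such places over the genome were found more often with at least 1. The strain was MOL for the tested places of Rnf212 and Msh5, CAST for that of Mlh3, CAST and PWD for those of Hfm1, and C3H and PWD for those of Msh4. In all, 62 hotspots of the 414683 were assigned to the 6 genes, 55 in the lists with PRDM9 and 7 in the knockout.

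**Figure D1:**
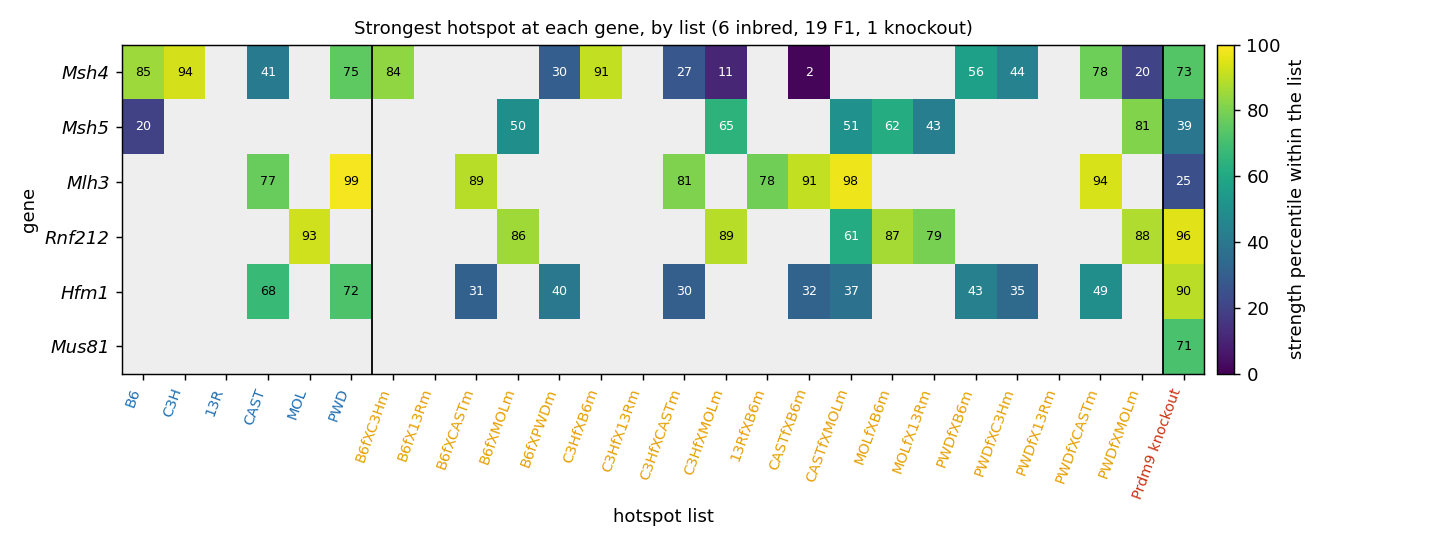
Each cell gives the strength percentile, within its own list, of the strongest hotspot at a gene (rows) in a hotspot list (columns, with inbred, F1 and knockout names in separate colours); grey cells hold no hotspot. The knockout column is filled for all 6 genes, while Mus81 is empty in the 25 other lists.

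The strength percentile used throughout is the percentage of hotspots of the same list that were weaker, by mid-rank, because the deposited scores are not comparable between lists. Rnf212 had the strongest of the knockout hotspots, at percentile 95.6 (rank 1356 of 30929). It ran from 108773413 to 108776712 on chromosome 5, and its centre lay 35 bp upstream of the RefSeq transcription start. The knockout hotspot of Hfm1 followed at percentile 89.5 (rank 3241; chromosome 5, 106924335 to 106927766), with the centre 160 bp upstream of the start. These were the only genes of the 6 with a hotspot among the strongest 5000 of the knockout list, which reached 22.5% of all protein-coding genes.

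Msh4 (percentile 73.1; chromosome 3, 153904371 to 153907244) and Mus81 (percentile 71.3; chromosome 19, 5486817 to 5492324) lay in the middle of the range. In Msh4 the centre was 916 bp upstream of the start in the promoter table, but 331 bp inside the end of the gene span, which reaches farther upstream than that start. The Mus81 hotspot was 5508 bp wide, was centred 1181 bp outside the gene and also held the start of Cfl1, the cofilin gene, so that the signal of the neighbouring promoters cannot be told apart. The weakest were at Msh5 (percentile 39.2; chromosome 17, 35045290 to 35047433; centre 261 bp downstream of the start) and Mlh3 (percentile 24.6; chromosome 12, 85269738 to 85271017; centre 222 bp downstream). Msh5 had a further knockout hotspot, 2997 bp beyond its 5′ end (chromosome 17, 35049580 to 35050409, percentile 26.2), whose interval held the start of Clic1, a chloride channel gene.

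**Figure D2:**
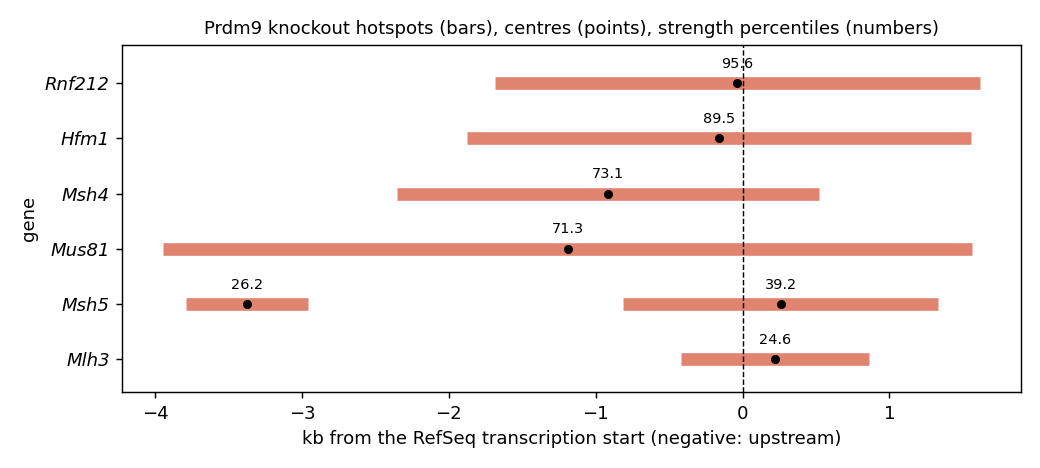
Bars are the knockout hotspot intervals at each gene, placed by distance in kb from the RefSeq transcription start (dashed line, negative upstream), with centres as points and strength percentiles as numbers. For each gene 1 bar spans the start, from percentile 24.6 at Mlh3 to 95.6 at Rnf212, and Msh5 has a separate bar upstream, at Clic1.

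In strength the 6 genes covered much of the range of other genes. Their median knockout percentile was 72.2, and the median over the 14491 protein-coding genes with a knockout hotspot was 73.0 (quartiles 47.5 and 88.7). A knockout centre lay within 1000 bp of a gene end in 5 of the 6 genes, all but Mus81, against 51.0% of all protein-coding genes. Among genes no shorter than Mus81 and no longer than Hfm1, 72.6% of 13403 had a knockout hotspot in the window used here. A link between meiotic genes and knockout hotspots was already known from these data when the 6 were chosen, so their count is a description and not separate evidence.

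The 250 bases before the start of each gene are printed because the knockout hotspots covered them in all 6 genes. Mlh3 has another, overlapping promoter in the table, which was covered too and is not printed. They were taken from RefSeq, GRCm38.p6, and all 6 genes lie on the minus strand. Capitals mark matches, on either strand, to the motifs named after the sequences.
Rnf212, chr5:108775028-108775277: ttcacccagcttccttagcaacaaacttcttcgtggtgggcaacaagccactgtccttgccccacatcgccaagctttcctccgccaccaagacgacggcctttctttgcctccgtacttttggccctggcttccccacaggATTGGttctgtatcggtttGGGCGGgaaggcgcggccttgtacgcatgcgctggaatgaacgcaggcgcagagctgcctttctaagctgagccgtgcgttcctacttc
Hfm1, chr5:106925891-106926140: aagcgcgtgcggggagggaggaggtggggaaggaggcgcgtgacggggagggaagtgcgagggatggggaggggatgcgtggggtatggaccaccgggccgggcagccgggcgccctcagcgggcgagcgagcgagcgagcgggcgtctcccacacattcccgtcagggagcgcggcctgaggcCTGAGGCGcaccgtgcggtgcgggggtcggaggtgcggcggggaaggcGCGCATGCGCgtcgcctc
Msh4, chr3:153904892-153905141: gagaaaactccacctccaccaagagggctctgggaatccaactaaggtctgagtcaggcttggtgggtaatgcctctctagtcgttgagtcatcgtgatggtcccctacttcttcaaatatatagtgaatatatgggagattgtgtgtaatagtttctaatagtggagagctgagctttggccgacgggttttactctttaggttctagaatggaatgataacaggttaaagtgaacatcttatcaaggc
Mus81, chr19:5488380-5488629: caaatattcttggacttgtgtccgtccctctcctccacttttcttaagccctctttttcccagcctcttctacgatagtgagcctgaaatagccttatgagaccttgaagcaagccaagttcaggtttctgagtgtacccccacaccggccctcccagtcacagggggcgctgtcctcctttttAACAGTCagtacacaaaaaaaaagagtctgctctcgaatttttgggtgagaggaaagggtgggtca
Msh5, chr17:35046623-35046872: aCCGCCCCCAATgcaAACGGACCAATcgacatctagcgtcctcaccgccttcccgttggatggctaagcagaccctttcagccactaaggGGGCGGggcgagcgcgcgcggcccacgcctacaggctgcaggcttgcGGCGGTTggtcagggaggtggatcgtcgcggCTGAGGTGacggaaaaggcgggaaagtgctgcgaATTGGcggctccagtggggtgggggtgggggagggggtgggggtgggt
Mlh3, chr12:85270600-85270849: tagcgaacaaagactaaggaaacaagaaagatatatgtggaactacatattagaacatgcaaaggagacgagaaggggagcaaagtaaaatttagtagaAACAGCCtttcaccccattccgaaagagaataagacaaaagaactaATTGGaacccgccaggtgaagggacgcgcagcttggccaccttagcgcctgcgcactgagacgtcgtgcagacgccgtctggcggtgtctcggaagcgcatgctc

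The promoters differed in base composition. CpG pairs, which are dense at many broadly active promoters, numbered 34 in Hfm1, 22 in Msh5, 16 in Rnf212 and 15 in Mlh3, but only 5 in Mus81 and 4 in Msh4, against a median of 6 over 32851 promoters. The promoters richest in G and C were those of Hfm1 (75.6%), at a strong knockout hotspot, and of Msh5 (67.2%), at a weak one. A GC box (GGGCGG) was found in Rnf212 and Msh5, and in 32.7% of all promoters. A CCAAT box (CCAAT) was found in Rnf212, Msh5 and Mlh3, and in 33.8% of all promoters. The MYB-family letters AACNGNC occurred in Msh5, Mlh3 and Mus81 and in 27.7% of promoters. MYBL1, a MYB protein, is a transcription factor of male meiosis.

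The STRA8 letters CNCCTCAG, named for a regulator of meiotic entry, occurred in Msh5 and Hfm1 and in 6.42% of promoters. The NRF1 motif, the last run of capitals in the Hfm1 sequence, occurred in Hfm1 and in 0.782% of promoters. None of the 6 held a TATA box (TATAAA, 12.4%) or a CRE (TGACGTCA, 1.55%), and Msh4 held none of the 7 motifs. In Msh5 a CCAAT match and a MYB match share a base. These matches are descriptions of the letters and not of binding.

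In the lists with PRDM9 the count of genes with a hotspot was near the genome-wide share. The 6 inbred lists had a hotspot at 0 to 3 of the 6 genes, with a median of 1.5, and at 24.8% to 30.6% of all protein-coding genes. CAST (26.6% of all genes) and PWD (25.7%) each had 3, which were Msh4, Mlh3 and Hfm1. B6 (30.6%) had Msh4 and Msh5, C3H (24.8%) had Msh4, MOL (27.2%) had Rnf212, and 13R (25.6%) had none.

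The 19 F1 lists had 0 to 4 of the 6, with a median of 2, against 20.0% to 31.8% of all genes. CASTfXMOLm (28.1% of all genes) had the most, with Msh5, Mlh3, Rnf212 and Hfm1. Msh4, Mlh3 and Hfm1 were hit together in C3HfXCASTm (24.5%), CASTfXB6m (27.0%) and PWDfXCASTm (31.8%), all with a CAST parent. The Msh4 hotspot of C3HfXCASTm, however, lay at a place found in C3H, and those of PWDfXCASTm at places found in PWD. Only that of CASTfXB6m, at percentile 1.93, lay at a place found in CAST. Msh4, Msh5 and Rnf212 were hit in C3HfXMOLm (26.4%) and PWDfXMOLm (28.6%).

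In the other F1 lists 2 genes or fewer were hit, and the pairs went by parent. Msh5 and Rnf212 were hit in B6fXMOLm (23.1%), MOLfXB6m (27.7%) and MOLfX13Rm (28.1%). Msh4 and Hfm1 were hit in B6fXPWDm (25.1%), PWDfXB6m (31.5%) and PWDfXC3Hm (28.6%), and Mlh3 and Hfm1 in B6fXCASTm (26.4%). Msh4 alone was hit in B6fXC3Hm (23.9%) and C3HfXB6m (28.4%), and Mlh3 alone in 13RfXB6m (24.0%). Of the 6 lists with a 13R parent, 4 had no hotspot at any of these genes, namely 13R, B6fX13Rm (20.0%), C3HfX13Rm (26.3%) and PWDfX13Rm (25.4%). All of the 19 lists without a 13R parent had at least 1, a division made after the values were seen.

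**Figure D3:**
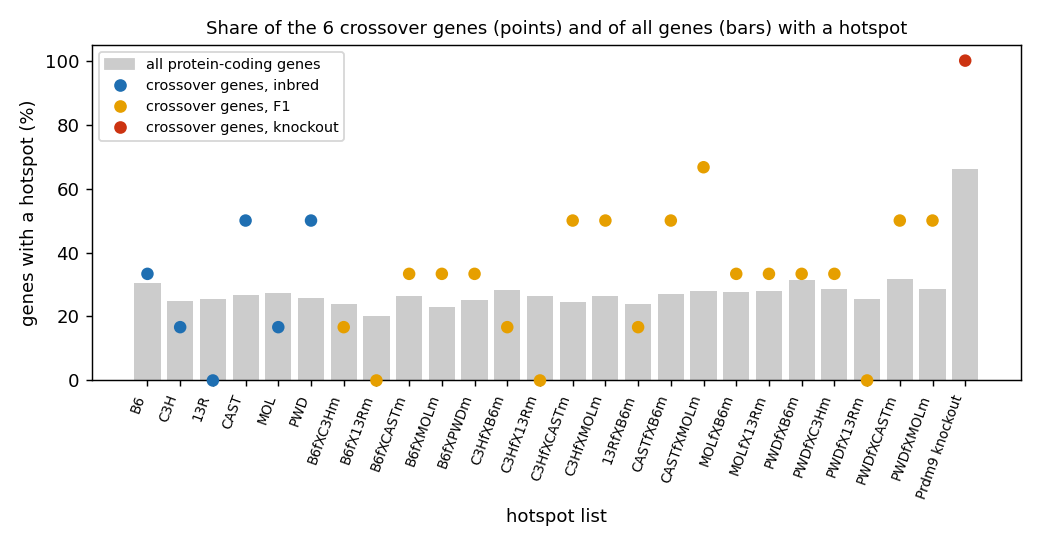
Points give the percentage of the 6 genes with a hotspot in each list, and bars give it for all 21883 protein-coding genes. The knockout point stands at 100% above a bar of 66.2%, and points of the inbred and F1 lists scatter around bars of 20.0% to 31.8%.

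The presence of a hotspot was also counted in inbred and F1 lists. Msh4 had one in 4 of 6 inbred and 10 of 19 F1 lists, Hfm1 in 2 and 8, Mlh3 in 2 and 6, Rnf212 in 1 and 6, Msh5 in 1 and 6, and Mus81 in 0 and 0. Fisher's exact test, adjusted over all protein-coding genes by Benjamini-Hochberg, called 0 of them (0.0% of 21883; 130 had an unadjusted p under 0.05, and none of the 6 was among these). The smallest p over all genes was 0.00217, with an adjusted p of 1 by Fisher's exact test, and each of the 6 genes also had an adjusted p of 1. The smallest p that 6 against 19 lists can give by Fisher's exact test is 5.65e-06, which becomes an adjusted p of 0.124 for a single gene, so a gene could pass only if at least 3 genes reached it. The test therefore cannot tell whether any of the 6 genes differed. Across the 25 lists, Msh4 had a hotspot in 14, Hfm1 in 10, Mlh3 in 8, Rnf212 and Msh5 in 7 each, and the median over all genes was 4. Counts at least as high were found at 19.2% of all genes for 14 lists, 29.7% for 10, 35.4% for 8 and 40.4% for 7. Hotspots were present in no list with PRDM9 at 31.5% of all genes, of which Mus81 is one. Among genes between Mus81 and Hfm1 in length, which leaves out the longest genes as well as the shortest, the median was 5 lists. An effect of gene length was not tested.

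To ask which parent each hotspot came with, hotspots of the 25 lists were joined into places when neighbouring centres lay under 400 bp apart. The 6 genes held 16 places, of which 6 were found in 1 list, 3 in 2 lists and 7 in 3 or more. For each place in at least 3 lists, presence was compared between lists with and without each of the 6 strains as a parent (two-sided Fisher's exact test, Benjamini-Hochberg over 330576 tests). All 7 tested places were found more often with 1 strain. Of the 55096 places tested over the genome, 70.5% were found more often with at least 1 strain (11.9% of all place and strain pairs). These p-values take no account of the parents that crosses have in common.

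**Figure D4:**
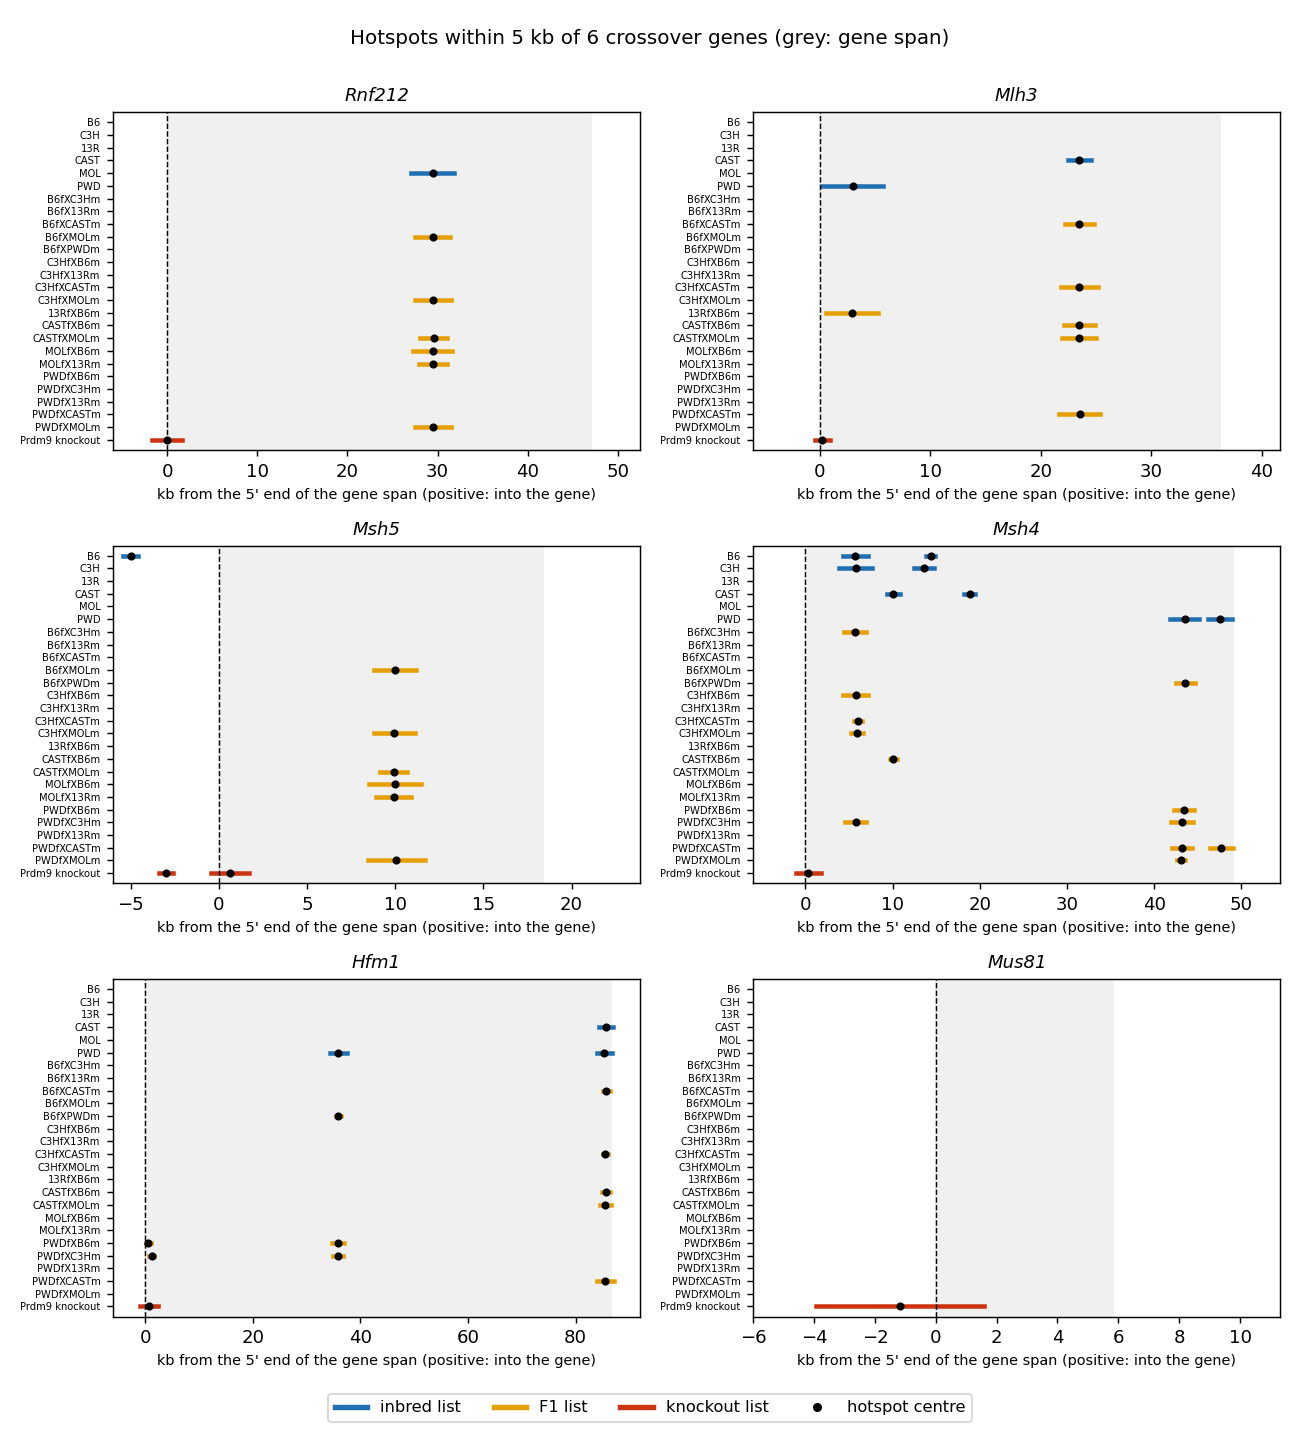
Each panel is 1 gene, with distance in kb from the 5′ end of the gene span on the x axis, the 26 lists as rows, bars for hotspot intervals and points for their centres. Knockout hotspots sit at or near the 5′ end, with 2 hotspots of crosses beside them in Hfm1. In Mlh3 the wide intervals of PWD and 13RfXB6m overlap that of the knockout. Of the 16 places of the lists with PRDM9, 6 are in 1 list only and 7 recur in 3 or more lists. An example is the one 29499 bp into Rnf212 in the 7 lists with a MOL parent.

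Rnf212 had a single place outside the knockout, 29499 bp into the gene (chromosome 5, 108743263 to 108747972). It was present in all 7 lists with a MOL parent and in 0 of the 18 others (Fisher's exact test, adjusted p = 0.000106). Its percentile was 92.8 in inbred MOL, 89.3 in C3HfXMOLm, 88.2 in PWDfXMOLm, 86.6 in MOLfXB6m, 85.7 in B6fXMOLm, 79.4 in MOLfX13Rm and 61.3 in CASTfXMOLm. It was thus among the stronger hotspots of every list but CASTfXMOLm. The 7 centres fell within 119 bp of each other.

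Msh5 was also hit in MOL crosses, 9990 bp into the gene (chromosome 17, 35035331 to 35038522), but not in inbred MOL. All 6 crosses with a MOL parent had the place and 0 of the 18 lists without one did (6 of 7 with MOL; Fisher's exact test, adjusted p = 0.000576). The percentile was 81.0 in PWDfXMOLm, 64.7 in C3HfXMOLm, 62.0 in MOLfXB6m, 50.6 in CASTfXMOLm, 50.0 in B6fXMOLm and 42.7 in MOLfX13Rm. These are middling hotspots, with PWDfXMOLm the highest. Of the 3660 autosomal places found in every MOL cross, 249 (6.80%) were likewise absent from the inbred MOL list. A further hotspot counted to Msh5, in B6 at percentile 19.6 (chromosome 17, 35051551 to 35052430), lay 4993 bp beyond its 5′ end and inside Clic1.

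Mlh3 carried a strong place 23501 bp into the gene (chromosome 12, 85245262 to 85248999) in all 6 lists with a CAST parent and in 0 of the 19 others (Fisher's exact test, adjusted p = 0.000106). The percentile was 76.7 in inbred CAST, 80.7 in C3HfXCASTm, 89.3 in B6fXCASTm, 91.0 in CASTfXB6m, 94.1 in PWDfXCASTm and 97.6 in CASTfXMOLm. Every cross thus ranked it higher than the inbred parent did. The centres lay within 32 bp of each other.

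A different place in Mlh3, 2970 bp into the gene (chromosome 12, 85264911 to 85270380), was among the strongest in inbred PWD, at percentile 98.6 (rank 199). Apart from PWD it was found only in 13RfXB6m, at percentile 78.4, where neither parental strain is PWD, and in none of the 6 PWD crosses. Of the 520 autosomal PWD places at percentile 95 or above, 4 (0.769%) were in no PWD cross, and 2 places of all 14539 PWD hotspots were shared with 13RfXB6m and no other list with PRDM9. This place was chosen for comparison after its values were seen. Its interval was wide, 5470 bp in PWD and 4694 bp in 13RfXB6m, and overlapped the knockout hotspot at the Mlh3 start, although the centres were 2732 and 2667 bp apart. Whether the signal reflects breaks was not tested.

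Msh4 had 7 places, the most of the 6 genes, and they divided by strain. The place nearest its start, 5865 bp in (chromosome 3, 153898482 to 153902289), was found in 6 of 7 lists with a C3H parent and in 1 of 18 without, inbred B6 (Fisher's exact test, adjusted p = 0.00327). The percentile was 93.6 in inbred C3H, 90.7 in C3HfXB6m, 85.4 in B6, 83.6 in B6fXC3Hm, 44.5 in PWDfXC3Hm, 27.1 in C3HfXCASTm and 10.7 in C3HfXMOLm. It was therefore strong where both parents were B6 or C3H and weaker in the 3 crosses of C3H with PWD, CAST or MOL. It was not listed in C3HfX13Rm or in any of the 8 crosses of B6 with 13R, CAST, MOL or PWD.

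At the other end of Msh4, 43344 bp in (chromosome 3, 153860975 to 153864280), a place was found in 6 of 7 lists with a PWD parent and 0 of 18 others (Fisher's exact test, adjusted p = 0.000576). The percentile was 75.1 in inbred PWD, 56.5 in PWDfXB6m, 42.5 in PWDfXC3Hm, 32.1 in PWDfXCASTm, 29.7 in B6fXPWDm and 20.4 in PWDfXMOLm, and PWDfX13Rm lacked it. All crosses lay below the inbred parent. With places joined under 200 bp it fell apart and lost the call. A second PWD place, 47615 bp in, was listed in PWD (percentile 69.8) and PWDfXCASTm (77.8).

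The other Msh4 places were sparse, in 1 or 2 lists each, and none was above percentile 41.3. CAST had hotspots 10092 bp in (percentile 41.3, with CASTfXB6m at 1.93) and 18870 bp in (31.8). B6 had one 14386 bp in (28.5) and C3H one 13609 bp in (5.59). The B6 and C3H intervals overlapped, but their centres were not under 400 bp apart, so they were counted as separate places. None of these other places was in enough lists for a test.

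Hfm1, the longest of the 6 genes at 86520 bp, had its most frequent place near its 3′ end, 85522 bp from the 5′ end (chromosome 5, 106839572 to 106842815). It was present in all 6 lists with a CAST parent and in 1 of 19 others, inbred PWD (Fisher's exact test, adjusted p = 0.000576). The percentile was 67.7 in CAST, 49.3 in PWDfXCASTm, 37.1 in CASTfXMOLm, 33.8 in PWD, 31.7 in CASTfXB6m, 30.9 in B6fXCASTm and 30.3 in C3HfXCASTm. Inbred CAST stood above the rest. PWDfXCASTm, whose parental strains both had the place, came next.

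In the middle of Hfm1, 35863 bp in (chromosome 5, 106889224 to 106892425), a place was found in 4 of 7 lists with a PWD parent and 0 of 18 others (Fisher's exact test, adjusted p = 0.0240). The percentile was 72.0 in PWD, 43.4 in PWDfXB6m, 39.8 in B6fXPWDm and 34.6 in PWDfXC3Hm. The call was lost when any of these 4 lists was left out, with adjusted p from 0.0735 without PWDfXC3Hm to 0.0750 without PWDfXB6m (0.0746 without PWD and 0.0748 without B6fXPWDm).

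By centres under 400 bp apart, 1 of the 7 knockout hotspots, that at the start of Hfm1, was found again in a list with PRDM9. PWDfXB6m listed a hotspot there (chromosome 5, 106925639 to 106926604), 71 bp from the knockout centre and at percentile 3.09, and this cross held 3.73% of all knockout hotspots within 400 bp, the highest share of the 25 lists. Beyond that limit, PWDfXC3Hm listed one with its centre 576 bp away (106924998 to 106925951, percentile 13.2), and held 1.59% of all knockout hotspots within 400 bp. Both were weak, their intervals overlapped although they were counted as separate places, and neither inbred PWD, B6 nor C3H listed a hotspot there. By any overlap of intervals the knockout hotspot of Mlh3 was also found again, in PWD and 13RfXB6m, as described above.

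Mus81, the shortest gene at 5829 bp, had no hotspot within 5000 bp in any of the 25 lists. The nearest lay 6808 bp outside the gene in PWD, at percentile 38.6. The nearest outside Hfm1 lay at 6383 bp in 13R, at percentile 5.79. Around Msh5, 6 lists had a hotspot 7710 to 7806 bp beyond the 3′ end, led by B6 at percentile 69.2. The hotspot nearest the 5000 bp limit on the inner side was that of B6 at Clic1.

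For places found in an inbred strain and in at least 3 of its crosses, the mean percentile over those crosses was set beside that of the inbred strain. The genome-wide values in this comparison cover autosomal places found in any cross of the strain, so also those in fewer than 3. Most of these ranked lower in crosses: 80.6% of such CAST places did, with a median difference of -15.3 percentile points (quartiles -27.1 and -3.54). Mlh3 went the other way, with 90.5 over 5 CAST crosses, a difference of 13.8 points. Hfm1 at its CAST place had 35.9, a difference of -31.9 points, which was below the lower quartile.

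Rnf212 stayed high, with 81.8 over 6 MOL crosses (-11.0, against a median of -22.9 and quartiles of -37.3 and -4.44 for MOL places). Msh4 at its PWD place had 36.2 over 5 crosses, a difference of -38.9 points, and Hfm1 at its PWD place had 39.3 over 3 crosses, a difference of -32.7, against a median of -21.5 for PWD places (quartiles -39.9 and 2.05). Msh4 at its C3H place had 51.3 over 5 crosses, a difference of -42.2, against a median of -15.4 (quartiles -30.7 and 4.09). Means cover only crosses that listed the place, and percentiles depend on how far down each list reaches.

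**Figure D5:**
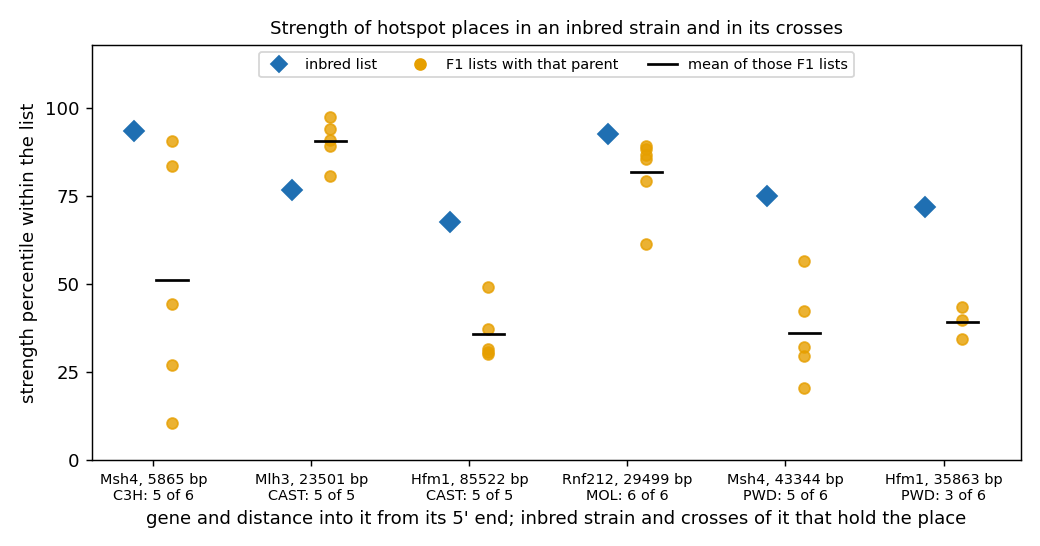
For each place, named by gene and distance into it from its 5′ end, the diamond is the strength percentile in the inbred list, points are the F1 lists with that parent that hold the place, and the line is their mean. The Mlh3 diamond (76.7) lies below all 5 of its crosses, and the other 5 diamonds lie above all of theirs.

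Recovery of a place in crosses also varied between the genes. Of the CAST places, those of Mlh3 and Hfm1 were in 5 of 5 crosses, but of those of Msh4 one was in 1 and the other in 0. Over the genome 47.5% of autosomal CAST places were in all 5 crosses and 21.5% were in none. The MOL place of Rnf212 was in 6 of 6 crosses, as were 23.4% of MOL places. Of the PWD places, those of Msh4 were in 5 and 1 of 6 crosses, those of Hfm1 in 3 and 1, and that of Mlh3 in 0, where 33.2% of PWD places over the genome were in none. The C3H places of Msh4 were in 5 and 0 of 6 crosses, and its B6 places in 2 and 0 of 10. The B6 place counted to Msh5 was in 0 of 10, like 34.2% of B6 places.

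Among other genes of crossover formation and joint-molecule processing, 24 of 25 were found in the gene table (not Spo16). Of these, 23 (95.8%) had a knockout hotspot in the same window, against 66.2% of all protein-coding genes. Their median percentile was 85.4, against 73.0 over all genes with one. A knockout centre lay within 1000 bp of a gene end in 21 (87.5%), against 51.0% of all genes. The 4 with the highest percentile were Gen1, a Holliday junction resolvase gene (99.1), Fancm, a DNA translocase gene that limits crossovers (98.6), Pms2, a mismatch repair gene (97.1), and Brip1, a helicase gene (95.4). The gene without one was Rtel1, a helicase gene. These genes had hotspots in a median of 6.5 of the 25 lists with PRDM9, against 4 over all genes. Gene length was not matched in these comparisons. The link between meiotic genes and knockout hotspots was already known, so these counts too are a description and not separate evidence. Of the 24, 4 (16.7%) had hotspots in none of those lists, against 31.5% of all genes. They were Rmi2, Eme2, Cdk2 and Eme1, named after their values were seen.

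The genes with the most similar pattern over the 26 lists were found by Pearson's r of the highest percentile per list, leaving out genes within 1000000 bp. For Rnf212 they were Arf2 (r = 0.996) and Letmd1 (0.995), for Msh5 Bex6 (0.976) and Ccdc63 (0.975), and for Hfm1 P2rx5 (0.957) and Qtrt2 (0.935). For Msh4 they were Zfp326 (0.917) and Wdr63 (0.914), and for Mlh3 Nsg1 (0.909) and Prmt8 (0.908). The lists share parents and most entries are 0, so these values only describe which genes are hit in the same lists. Mus81, with a hotspot in 1 list, was not compared.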

How the data were processed

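DMC1 SSDS hotspot lists of 26 libraries, 1 per genotype, were analysed, and 5 input samples were not used here. The submitters' processing notes name CASAVA 1.8, MACS2 2.0.10 and the mm10 build. Each hotspot carries a strength score as deposited by the authors; the sources used here do not give its normalization, the filters or the read depth, and 104 values lie below 0. It was therefore used only as a rank or percentile within a list. List lengths ran from 10445 to 30929 hotspots.

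Groups came from the sample titles. Deposited starts were taken as 0-based and printed 1-based. Genes and promoters came from RefSeq tables of GRCm38.p6 (the mm10 primary assembly); the promoter table gave strand and start for all 6 genes, and exons were not used here. Fisher's exact tests used Python 3.11.15 and SciPy 1.17.1, with a threshold of 0.05, and were tested on simulated data. X chromosome places were treated like autosomal ones. Set tests were not used. A gene of the crossover list is not reported here. Genes named beside the 6 were, by rule, the 4 of the crossover list with the highest knockout percentile and the 2 most similar to each; genes outside a count and neighbours at a hotspot were named after their values were seen. The members and lists were chosen with earlier results of these data known. Alternatives covered the window, overlap, the joining distance, list length and left-out lists; leaving out each list in turn was added after seeing the data.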

Additional observations from a re-analysis of the deposited data

Results flagged for a closer look

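The percentile of the Rnf212 place in CASTfXMOLm, 61.3, stood apart from the other 6 lists with a MOL parent, which ran from 79.4 to 92.8. It was marked because its gap to the next value was large for the range of the 7. Of 8 sets of values checked this way 1 was marked, and chance marks about 1 in 20.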

How the results depend on the processing

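Restricting each list to its strongest 5000 hotspots had the largest effect. Of the 6 genes 2 then had a knockout hotspot (22.5% of all genes). The F1 median fell from 2 to 1 and the inbred median from 1.5 to 1 (11.8% of all genes for each). Of 3 tested places 2, in Mlh3 and Rnf212, followed a strain, as did 65.8% of tested places over the genome. Any overlap of intervals raised the knockout hotspots found again in other lists from 1 to 2, through Mlh3. Leaving out each of the 25 lists gave 6 to 7 places that followed a strain, and 7 without the list labelled CAST. Joining centres under 200 bp gave 6 of 8 tested places (17 places in all), and under 1000 bp 7 of 7 (14 in all). A window of 10000 bp gave 8 of 8 tested places (21 in all), where the main setting gave 7 of 7 (16 in all). Over the genome 70.5% of tested places followed a strain in the main setting. A window of 1000 bp left 5 knockout genes, without Mus81, against 62.3% of all genes. The inbred and F1 comparison, which no gene can pass alone, called 0 of the 6 genes with windows of 1000 and 10000 bp too (114 and 161 genes of all with an unadjusted p under 0.05, by Fisher's exact test). No paired analysis was possible because the labels give no replicate numbers that inbred and F1 lists share; crosses were set beside their inbred parents instead. Depth is unknown, so weak hotspots may be missing from shorter lists.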
